A study of Rattus norvegicus with 12 samples.

Results

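Wnt ligands, their receptors and co-receptors, the secreted proteins that modulate them and the core of the intracellular pathway were examined in the striatum of methamphetamine (MA) self-administering rats. The genes were taken by symbol: *Wnt*, *Fzd*, *Sfrp*, *Dkk* and *Rspo* genes, *Lgr4* to *Lgr6*, *Dvl1* to *Dvl3*, *Tcf7* genes, *Lrp5*, *Lrp6*, *Wif1*, *Axin1*, *Axin2*, *Lef1*, *Ctnnb1*, *Apc*, *Gsk3b*, *Znrf3* and *Rnf43*. A mean count of at least 4 over all 12 libraries was also required. Of the 17337 genes in the table, 54 carried such a symbol, and 47 of them reached the mean count. They comprised 16 ligands, 8 frizzled receptors, 2 co-receptors, 7 secreted antagonists, 4 genes of the R-spondin axis, 7 intracellular transducers and 3 TCF/LEF factors. No row of the table carried the symbol *Axin1*, *Lgr6* or *Znrf3*, so these genes were not examined. *Dkk1*, *Fzd8* and *Wnt8a* had no count in any library, and *Rspo2*, *Rspo3*, *Sfrp5* and *Wnt3a* had mean counts of 0.167, 1.08, 1 and 0.0833. Just above the limit were *Rspo1* with a mean count of 5, *Wnt6* with 5.08 and *Wnt16* with 7.5.

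RNA sequencing of poly-A RNA from the whole striatum was available for 12 wild-type male Sprague–Dawley rats, 1 library per rat and 4 rats per group. MA12 rats were killed 12 h and MA24 rats 24 h after the end of 16 daily sessions in which they pressed a lever for MA. The rats were kept under a 12-h light-dark cycle, and the time of day at death is not given in the sources used here. Hours of abstinence and time of day therefore cannot be told apart between MA12 and MA24. The third group is labelled non-addicted and had also gone through 16 days of MA self-administration. The labels give no abstinence time for these rats and do not define non-addicted. All 12 rats are labelled as treated with MA. Rats given saline were not analysed here.

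Wnt proteins are secreted lipid-modified signals that bind frizzled receptors. In the canonical branch they also engage the co-receptors *Lrp5* and *Lrp6*, which halts the destruction of β-catenin by a complex that contains *Apc*, *Axin2* and the kinase *Gsk3b*, and β-catenin then acts with TCF/LEF factors on target genes. Secreted antagonists either trap the ligand, as the *Sfrp* proteins and *Wif1* do, or block the co-receptor, as Dickkopf proteins such as *Dkk2* do. In the adult striatum this pathway is known for roles at synapses and, along the lateral ventricle, in the subventricular zone, where neural progenitors lie next to ependymal cells.

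Total counts per library lay between 17908962 and 23850284. Mean counts of the Wnt genes ran from 5 for *Rspo1* to 6127 for *Ctnnb1*, so genes near the lower end carry a large counting error. Summed levels of 10 striatal projection neuron markers were between 13980 and 18465 CPM (counts scaled to a fixed library total) in every rat, and each of these markers was detected. MA24 rat 14N had the lowest level of all 12 rats in 11 of the 47 genes, and MA12 rat 31 had the highest level in 10. Every MA24 rat, and MA12 rats 4N and 7N, carry an N after their number, while no non-addicted rat does, and what it stands for is not given in the sources used here.

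**Figure D1:**
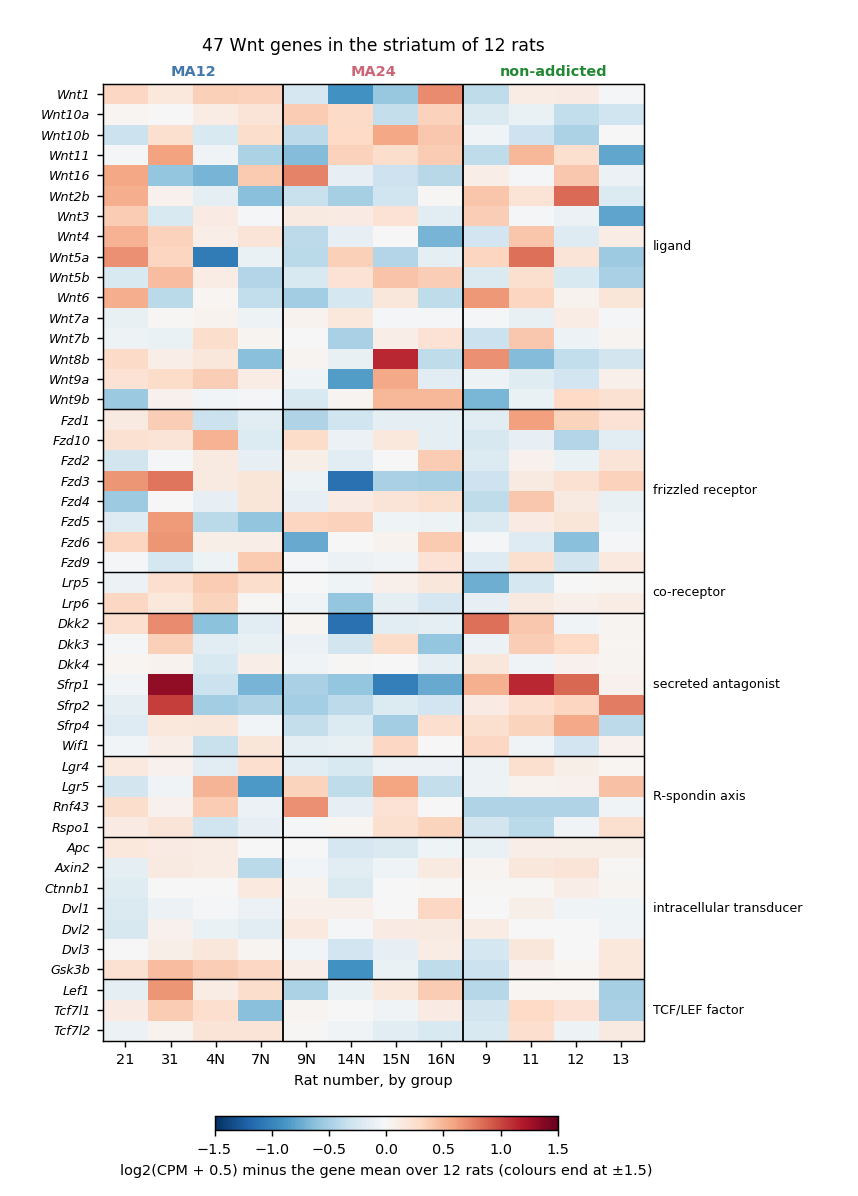
Levels of the 47 Wnt genes (rows, by role) in the 12 rats (columns, by group), as log2(CPM + 0.5) minus the mean of the gene over 12 rats, with red above and blue below that mean. Secreted antagonists *Sfrp1* and *Sfrp2* were highest in MA12 rat 31, and MA24 rat 14N had the lowest level in 11 genes.

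Few Wnt genes were differentially expressed genes (DEGs), defined by a fold change (FC) of at least 1.5 and an adjusted p under 0.05 (edgeR, quasi-likelihood, Benjamini-Hochberg over all genes tested). In MA24 vs. MA12, 2 of 45 tested Wnt genes were DEGs, *Fzd3* and *Gsk3b*, both lower in MA24. Of all genes tested, 2.45% were DEGs, 0.735% higher and 1.72% lower. In non-addicted vs. MA12, 0 of 43 were DEGs by edgeR and by DESeq2, against 0.251% of all genes, while 7 had an unadjusted p below 0.05 in edgeR. In non-addicted vs. MA24, 1 of 43 was a DEG, *Sfrp1*, higher in the non-addicted rats, against 0.456% of all genes and 0.326% that were higher. The 3 comparisons share their groups and are not independent of one another.

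At an unadjusted p below 0.05, 7 Wnt genes passed in MA24 vs. MA12, where 23.6% of all genes did. In non-addicted vs. MA12 the 7 Wnt genes that passed were all lower in the non-addicted rats, and 12.3% of all genes passed, 571 higher and 756 lower. In non-addicted vs. MA24, 9 passed, 6 higher and 3 lower, against 17.5% of all genes. The 4 rats of each group did not overlap for 5 Wnt genes in MA24 vs. MA12 (15.5% of all genes), for 5 in non-addicted vs. MA12 (7.11%) and for 3 in non-addicted vs. MA24 (10%). The median log2FC of the Wnt genes was -0.0574, -0.0403 and 0.0302 in the 3 comparisons, and that of all genes tested was -0.0158, -0.0124 and 0.0031.

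**Figure D2:**
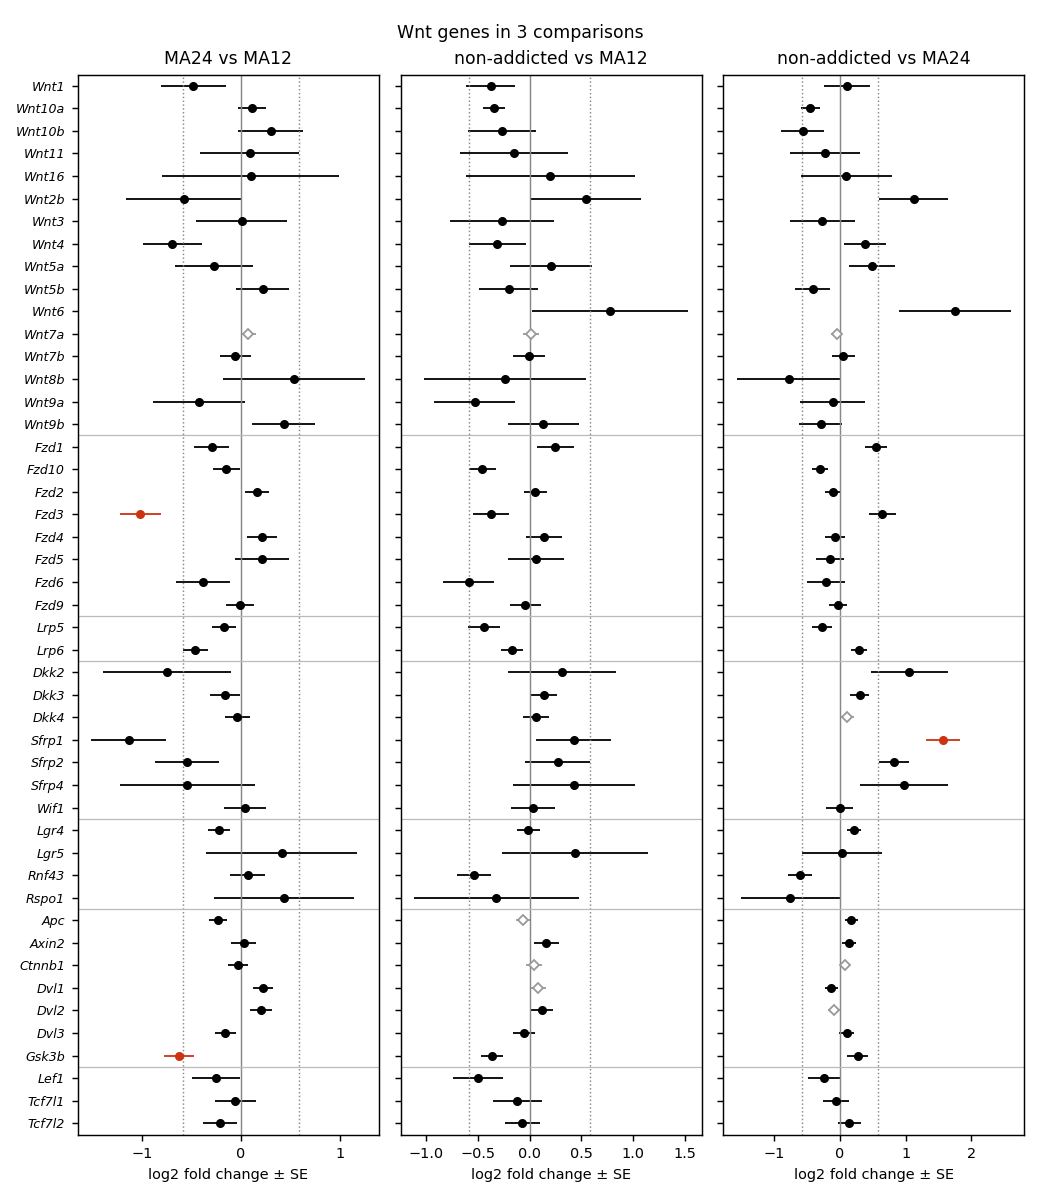
Log2FC ± SE of each Wnt gene (rows, by role) in the 3 comparisons, where values above 0 are higher in the group named first. Red points are the 3 DEGs, *Fzd3*, *Gsk3b* and *Sfrp1*, dotted lines mark an FC of 1.5, and open diamonds are genes that the variance filter removed, taken from the fit without that filter.

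None of the ligands was a DEG. *Wnt4*, a ligand best known from kidney and gonad development, was at 3.74, 3.26, 2.68 and 2.88 CPM in MA12 rats 21, 31, 4N and 7N and at 1.76, 2.22, 2.47 and 1.32 CPM in MA24 rats 9N, 14N, 15N and 16N. The groups did not overlap, with a log2FC of -0.69 (SE 0.30) and an adjusted p of 0.162 (edgeR). *Wnt10a*, a canonical ligand, was at 20.9, 22.7, 18.7 and 19.7 CPM in non-addicted rats 9, 11, 12 and 13. Every one of these values lay below the MA12 rats, which were at 24.9, 24.4, 26.4 and 28.0 CPM in the order above. MA24 rats were at 32.0, 29.8, 18.9 and 31.2 CPM, so that rat 15N fell among the non-addicted rats. The log2FC of *Wnt10a* was -0.34 (SE 0.11) in non-addicted vs. MA12 and -0.45 (SE 0.15) in non-addicted vs. MA24, with adjusted p of 0.180 and 0.139 in edgeR. *Wnt1*, the ligand of the midbrain organizer, and *Wnt9a* were also lower in every non-addicted rat than in any MA12 rat, at 3.05 ± 0.534 and 3.95 ± 0.274 CPM for *Wnt1* and 0.902 ± 0.151 and 1.30 ± 0.137 CPM for *Wnt9a* (SD, n = 4), with adjusted p of 0.560 and 0.622 in edgeR. *Wnt2b* was at 0.941 ± 0.440 CPM in non-addicted and 0.432 ± 0.143 CPM in MA24 rats (SD, n = 4), with a log2FC of 1.12 (SE 0.53) and an adjusted p of 0.278 in edgeR. The steadiest ligand was *Wnt7a*, which stayed between 58.9 and 71.0 CPM in all 12 rats and was removed by the variance filter in each comparison. The 10 ligands not described so far, *Wnt3*, *Wnt5a*, *Wnt5b*, *Wnt6*, *Wnt7b*, *Wnt8b*, *Wnt9b*, *Wnt10b*, *Wnt11* and *Wnt16*, had no unadjusted p below 0.05 where they were tested. *Wnt6* and *Wnt16* had no count in at least 1 rat.

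Among the frizzled receptors, *Fzd3*, which acts in axon guidance and planar polarity, was lower in MA24 than in MA12. Its level was 19.1, 21.1, 13.1 and 13.6 CPM in MA12 rats 21, 31, 4N and 7N and 11.2, 5.17, 8.33 and 8.24 CPM in MA24 rats 9N, 14N, 15N and 16N. Each MA24 rat lay below each MA12 rat, and the means were 16.7 ± 4.02 and 8.24 ± 2.47 CPM (SD, n = 4). The change was 2.02-fold, with a log2FC of -1.02 (SE 0.21) and an adjusted p of 0.0110 in edgeR. The 2 MA12 rats with N in their number were lower than the other 2, and with only rats numbered with N it was -0.68 (SE 0.23; adjusted p = 0.147). The part of the kind of rat number in the change was not tested further. Non-addicted rats 9, 11, 12 and 13 were in between, at 9.49, 13.1, 13.9 and 15.2 CPM, and overlapped with both groups. Their log2FC was -0.38 (SE 0.17) against MA12 and 0.64 (SE 0.21) against MA24, with adjusted p of 0.390 and 0.137 in edgeR. In bulk tissue, fewer cells of a type and less RNA per cell cannot be told apart. Summed thalamus markers were also lower in every MA24 rat (40.1 to 57.4 CPM) than in any MA12 rat, with 1 of 6 tested a DEG and lower, and in MA12 they were 94.4, 76.0, 59.6 and 64.5 CPM in rats 21, 31, 4N and 7N. Of 8 mural cell markers 2 were DEGs, both lower in MA24, while 2.45% of all genes tested were DEGs. For subventricular zone progenitor markers, 0 of 9 had a log2FC above 0 (median -0.50). The part of these cells in the *Fzd3* and *Gsk3b* differences was not tested.

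*Fzd10* was lower in the non-addicted rats than in MA12, at 35.1 ± 3.33 and 47.8 ± 9.74 CPM (SD, n = 4), with a log2FC of -0.46 (SE 0.13) and an adjusted p of 0.142 in edgeR. Against MA24, at 43.2 ± 6.17 CPM, it was -0.31 (SE 0.12) at an adjusted p of 0.205. *Fzd6*, a planar polarity receptor, was at 3.15 ± 0.662 CPM in non-addicted and 4.71 ± 1.02 CPM in MA12 rats (SD, n = 4). These groups did not overlap, and the adjusted p was 0.335 in edgeR. *Fzd1* was at 13.4 ± 2.98 CPM in non-addicted and 9.18 ± 0.994 CPM in MA24 rats (SD, n = 4), with a log2FC of 0.55 (SE 0.17) and an adjusted p of 0.131 in edgeR. *Fzd2*, *Fzd4*, *Fzd5* and *Fzd9* had no unadjusted p below 0.05 in any of the 3 comparisons.

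Of the co-receptors, *Lrp6* passed the adjusted p but not the FC limit in MA24 vs. MA12, so that 3 Wnt genes passed at any fold, as did 5.16% of all genes. It was at 39.7, 35.6, 40.4 and 32.2 CPM in MA12 rats 21, 31, 4N and 7N and at 30.6, 21.2, 29.0 and 26.6 CPM in MA24 rats 9N, 14N, 15N and 16N. The groups did not overlap, and the level was 1.38-fold lower in MA24, with a log2FC of -0.46 (SE 0.12) and an adjusted p of 0.0360 in edgeR. The adjusted p was 0.0187 to 0.108 when 1 rat was left out, and stayed under 0.05 only without rat 7N or 9N. With only rats numbered with N it was 0.197, at a log2FC of -0.42. Non-addicted rats were at 33.0 ± 2.62 CPM (SD, n = 4), 0.29 (SE 0.12) above MA24 on the log2 scale, with an adjusted p of 0.242. *Lrp5*, its paralogue, was at 17.6 ± 4.00 CPM in non-addicted and 23.9 ± 3.26 CPM in MA12 rats (SD, n = 4), with a log2FC of -0.44 (SE 0.16) and an adjusted p of 0.241 in edgeR.

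**Figure D3:**
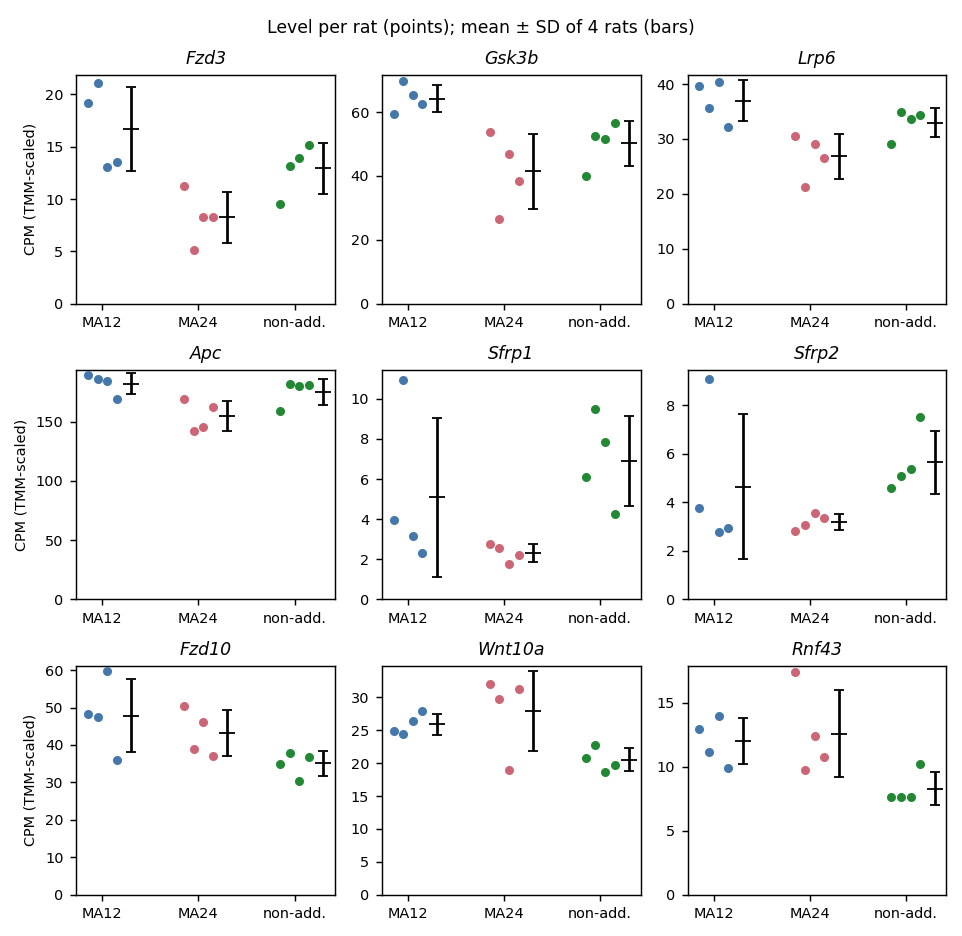
Levels in CPM (TMM-scaled) of 9 Wnt genes, with 1 point per rat and bars at the mean ± SD of 4 rats. *Fzd3*, *Gsk3b* and *Lrp6* were lower in every MA24 rat than in any MA12 rat, and *Sfrp1* and *Sfrp2* were higher in every non-addicted rat than in any MA24 rat.

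Of the secreted antagonists, *Sfrp1*, which encodes a protein that binds Wnt ligands outside the cell, was at 6.10, 9.47, 7.83 and 4.27 CPM in non-addicted rats 9, 11, 12 and 13. In MA24 rats 9N, 14N, 15N and 16N it was at 2.75, 2.56, 1.75 and 2.22 CPM, so that the groups did not overlap. It was 2.96-fold higher in non-addicted than in MA24 rats, with a log2FC of 1.57 (SE 0.26) and an adjusted p of 0.0241 in edgeR. No MA24 rat has a number without N and no non-addicted rat has one with N, so the kind of number and the group cannot be told apart here. *Sfrp1* was no longer a DEG without the variance filter (adjusted p = 0.0669), nor without rat 11, 12, 15N or 16N, where the log2FC stayed between 1.38 and 1.55. In MA12 rats 21, 31, 4N and 7N *Sfrp1* was at 3.95, 10.9, 3.15 and 2.32 CPM. Rat 31 was thus the highest of all 12 rats, while the other 3 lay below every non-addicted rat. The log2FC was -1.13 (SE 0.38) in MA24 vs. MA12 (adjusted p = 0.0832, edgeR) and -0.44 without rat 31 (adjusted p = 0.454). DESeq2 made it a DEG there (log2FC -1.12, adjusted p = 0.0399), and with only rats numbered with N the log2FC was -0.22 (adjusted p = 0.808, edgeR). The log2FC was 0.43 (SE 0.36) in non-addicted vs. MA12 (adjusted p = 0.681, edgeR) and 1.12 without rat 31 (adjusted p = 0.0849). When numbers with and without N were modelled as a covariate, the latter was -0.11.

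*Sfrp2*, of the same family, was at 4.59, 5.08, 5.37 and 7.49 CPM in non-addicted rats 9, 11, 12 and 13 and at 2.80, 3.05, 3.55 and 3.33 CPM in MA24 rats 9N, 14N, 15N and 16N. Its log2FC was 0.82 (SE 0.23), and the adjusted p was 0.0335 in DESeq2 but 0.100 in edgeR. MA12 rat 31 was again the highest, at 9.07 CPM, with the other MA12 rats between 2.77 and 3.74 CPM. *Dkk2*, *Dkk3*, *Dkk4*, *Sfrp4* and *Wif1* had no unadjusted p below 0.05. Of the 7 antagonists, 6 had a log2FC below 0 in MA24 vs. MA12, with a median of -0.54, and 7 had one above 0 in non-addicted vs. MA12, with a median of 0.27, though *Sfrp1* turned below 0 there in both analyses by kind of rat number. In non-addicted vs. MA24, 5 of 6 tested were above 0, with a median of 0.90. Of all genes tested, 51.7%, 52.3% and 49.7% were below 0 in these comparisons, in that order. The median of -0.54 was the value of *Sfrp4* (SE 0.69), and *Sfrp4* and *Dkk2* had mean counts of only 8.17 and 16.3. *Dkk3*, *Dkk4* and *Wif1*, with mean counts of 1210, 358 and 113, were at -0.16, -0.04 and 0.04 in MA24 vs. MA12. In non-addicted vs. MA24, *Dkk3* and *Wif1* were at 0.30 and -0.0065.

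Markers of several cell types were compared between these groups. For cells at the ventricle wall, the summed progenitor and ependymal markers overlapped between non-addicted and MA24 rats. The summed level of 9 subventricular zone progenitor markers was 127, 194, 168 and 119 CPM in non-addicted rats 9, 11, 12 and 13 and 101 to 124 CPM in MA24 rats. In MA12 it was 222 CPM in rat 31, 148 CPM in rat 21 and 112 to 118 CPM in the other rats. All 9 of these markers had a log2FC above 0 in non-addicted vs. MA24, with a median of 0.81, though 0 were DEGs. Of 12 ependymal markers, 11 were in the table. Their sum was 84.3 to 163 CPM in non-addicted, 70.6 to 94.4 CPM in MA24 and 62.9 to 131 CPM in MA12 rats, with rat 31 the highest of MA12. In non-addicted vs. MA24, 2 of 10 tested ependymal markers were DEGs, both higher, against 0.456% of all genes in this comparison. Choroid plexus markers summed to 153 to 172 CPM in non-addicted and 151 to 216 CPM in MA24 rats, while 6 of 8 tested had a log2FC above 0, with a median of 1.14 and 0 DEGs. Thalamus markers were above 0 in 6 of 7, with a median of 0.65. Endothelial markers were above 0 in 0 of 9, and 2 were DEGs, both lower in non-addicted rats. Mural sums did not overlap, at 114 to 145 CPM in non-addicted and 154 to 184 CPM in MA24 rats, nor did oligodendrocyte sums, at 11668 to 17286 and 18109 to 21240 CPM. No progenitor or ependymal marker was at 0 in all rats, and the part of any of these cell types in the *Sfrp1* and *Sfrp2* differences was not tested. In non-addicted vs. MA12, 3 of 8 mural markers were DEGs, all lower in non-addicted rats, against 0.251% of all genes. Mural sums were 166 to 258 CPM in MA12 and did not overlap there either. Ependymal markers were above 0 in 10 of 10, with 0 DEGs. The part of these cells in the Wnt gene differences of that comparison was not tested.

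**Figure D4:**
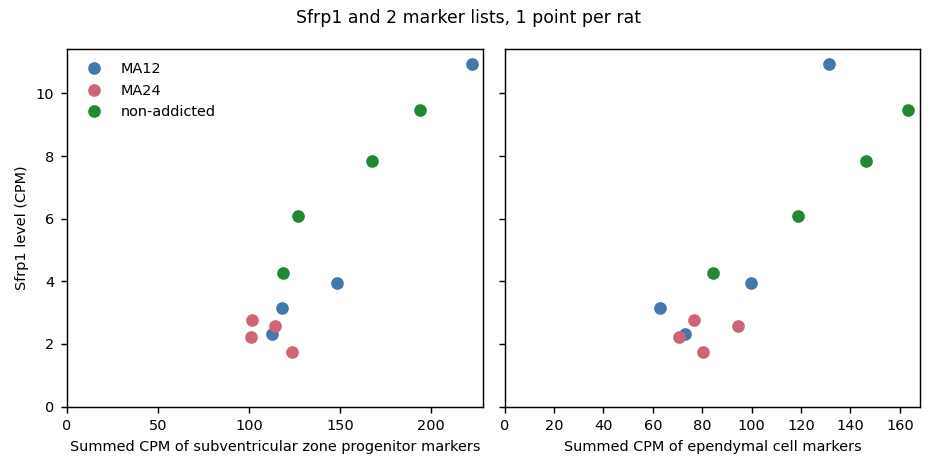
Level of *Sfrp1* in CPM against the summed CPM of subventricular zone progenitor markers (left) and ependymal markers (right), 1 point per rat, coloured by group. MA12 rat 31, with *Sfrp1* at 10.9 CPM, had the highest progenitor sum, 222 CPM, and the 4 MA24 rats had *Sfrp1* at 1.75 to 2.75 CPM. For ependymal markers, rat 31 at 131 CPM lay below non-addicted rats 11 and 12, at 163 and 146 CPM. Both marker sums overlapped between MA24 and non-addicted rats.

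In the R-spondin axis, *Rnf43*, a membrane ubiquitin ligase that removes frizzled receptors from the cell surface, was at 7.61, 7.65, 7.63 and 10.3 CPM in non-addicted rats 9, 11, 12 and 13. It was at 12.0 ± 1.79 CPM in MA12 and 12.6 ± 3.39 CPM in MA24 rats (SD, n = 4), and rat 13 overlapped with both. The log2FC was -0.54 (SE 0.17) against MA12 and -0.61 (SE 0.19) against MA24, with adjusted p of 0.168 and 0.129 in edgeR. *Lgr4*, a receptor for R-spondins, was at 30.7 ± 2.86 CPM in non-addicted and 26.4 ± 1.28 CPM in MA24 rats (SD, n = 4), groups that did not overlap, with an adjusted p of 0.317 in edgeR. *Lgr5* and *Rspo1* had mean counts of 9.42 and 5 and no unadjusted p below 0.05.

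Among the intracellular transducers, *Gsk3b*, the kinase that marks β-catenin for destruction, was lower in MA24 than in MA12. It was at 59.4, 69.6, 65.2 and 62.7 CPM in MA12 rats 21, 31, 4N and 7N and at 53.9, 26.6, 47.0 and 38.4 CPM in MA24 rats 9N, 14N, 15N and 16N. The groups did not overlap, with means of 64.2 ± 4.32 and 41.5 ± 11.7 CPM (SD, n = 4). The change was 1.55-fold, with a log2FC of -0.63 (SE 0.15) and an adjusted p of 0.0236 in edgeR. This lies close to the FC limit, and without MA24 rat 14N, the lowest, the log2FC was -0.47 with an adjusted p of 0.0359. Without rat 16N the adjusted p was 0.0625, and with only rats numbered with N it was 0.0641 at a log2FC of -0.61. Non-addicted rats were at 40.1, 52.5, 51.5 and 56.5 CPM, below every MA12 rat, with a log2FC of -0.36 (SE 0.11) and an adjusted p of 0.153. *Apc*, a member of the same complex, was at 155 ± 12.9 CPM in MA24 and 182 ± 9.09 CPM in MA12 rats (SD, n = 4), with a log2FC of -0.23 (SE 0.10) and an adjusted p of 0.148 in edgeR. *Dvl1*, which relays the signal from frizzled, was at 141 ± 13.5 CPM in MA24 and 120 ± 6.47 CPM in MA12 rats (SD, n = 4), groups that did not overlap, with a log2FC of 0.22 (SE 0.10) and an adjusted p of 0.170. *Ctnnb1*, which encodes β-catenin, stayed between 250 and 323 CPM in all 12 rats. *Axin2*, *Dvl2* and *Dvl3* had no unadjusted p below 0.05.

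*Axin2* is both a member of the destruction complex and a common target of TCF/LEF factors, so its promoter is shown together with that of *Gsk3b*, the DEG for which RefSeq gave one. RefSeq promoters on GRCr8 were matched for 33 of the 47 genes, and *Fzd3*, *Sfrp1* and *Lrp6* were among the 14 without an entry. Only CTTTGAT, a form of the TCF/LEF core motif, and ATCAAAG on the other strand were searched, not other forms of the motif. This form was present in the 250 bases before the gene start in 3.15% of 33469 promoters and in 1 Wnt gene, *Axin2*. The bases from chr10:94398535-94398784 (plus strand) and chr11:76153250-76153499 (minus strand) are given from 5′ to 3′ up to the gene start, with the motif in capitals at 132 to 126 bases before the start of *Axin2*.
Axin2: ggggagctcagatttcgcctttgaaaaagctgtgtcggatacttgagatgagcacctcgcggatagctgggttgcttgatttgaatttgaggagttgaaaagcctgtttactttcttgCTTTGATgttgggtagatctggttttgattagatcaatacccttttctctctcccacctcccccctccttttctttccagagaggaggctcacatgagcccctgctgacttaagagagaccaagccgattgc
Gsk3b: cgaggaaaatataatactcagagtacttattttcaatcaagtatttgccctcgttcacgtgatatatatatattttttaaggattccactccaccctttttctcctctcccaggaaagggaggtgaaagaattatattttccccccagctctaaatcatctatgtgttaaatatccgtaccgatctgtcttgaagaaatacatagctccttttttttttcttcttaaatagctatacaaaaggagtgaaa
The level of *Axin2* was 25.3 ± 4.39 CPM in MA12, 25.8 ± 2.23 CPM in MA24 and 28.5 ± 1.79 CPM in non-addicted rats (SD, n = 4). The TCF/LEF factors themselves, *Lef1*, *Tcf7l1* and *Tcf7l2*, had no unadjusted p below 0.05, and their median log2FC was -0.21, -0.12 and -0.06 in the 3 comparisons.

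Other genes of the pathway were taken from a list of 72, of which 64 were in the table. In MA24 vs. MA12, 1 of 51 tested was a DEG (2.45% of all genes). This was *Reck*, a membrane protein that takes part in the response to *Wnt7a*, at 38.3 CPM in MA24 and 24.4 CPM in MA12 on average. MA24 rats 9N, 14N, 15N and 16N were at 35.1, 53.0, 26.3 and 38.8 CPM, and MA12 rats lay between 23.2 and 25.2 CPM. This gave a log2FC of 0.65 (SE 0.15; adjusted p = 0.0212, edgeR), and without rat 14N it was no longer a DEG. *Tnks*, a tankyrase that promotes the turnover of axin, and *Celsr2*, a planar polarity cadherin, had adjusted p of 0.0279 and 0.0494 in edgeR but log2FC of -0.5849 and -0.42, under the FC limit. *Tnks* missed the limit only narrowly. It was a DEG with no filter, with a minimum of 10 counts per library, with TMM before the variance filter and without rat 4N, 7N, 9N or 16N. In this comparison 14 of the 51 had an unadjusted p below 0.05 (23.6% of all genes) and 9 did not overlap between groups (15.5%). In non-addicted vs. MA12, 0 of 50 were DEGs by edgeR and by DESeq2, against 0.251% of all genes in edgeR. Here 8 had an unadjusted p below 0.05 (12.3% of all genes). In non-addicted vs. MA24, 0 of 49 were DEGs by both tools, against 0.456% of all genes in edgeR, and 8 had an unadjusted p below 0.05 (17.5% of all genes).

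**Figure D5:**
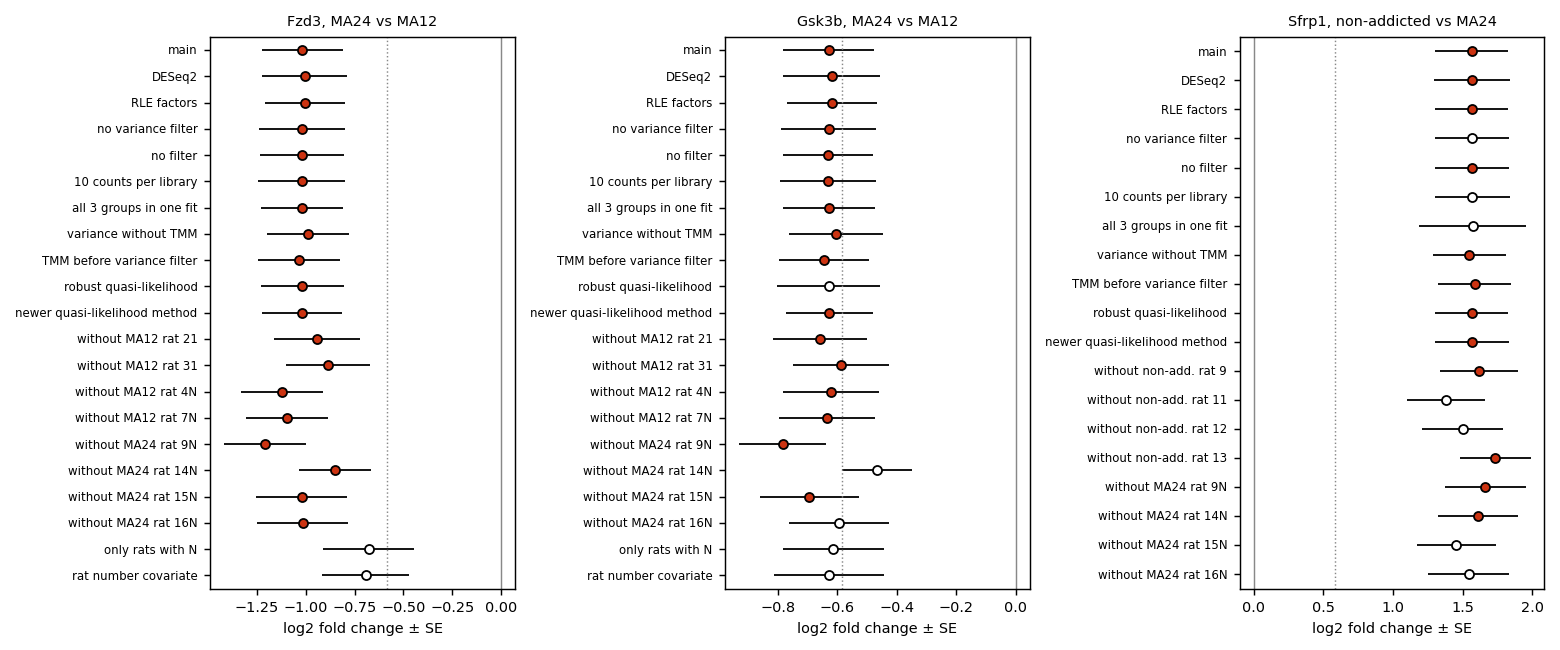
Log2FC ± SE of *Fzd3* and *Gsk3b* in MA24 vs. MA12 and of *Sfrp1* in non-addicted vs. MA24 under each alternative analysis (rows), with filled points where the gene was a DEG and a dotted line at an FC of 1.5. The log2FC of *Fzd3* ranged from -1.21 to -0.68, that of *Gsk3b* from -0.78 to -0.47 and that of *Sfrp1* from 1.38 to 1.73.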

How the data were processed

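RNA sequencing counts from the striatum of 12 rats (4 MA12, 4 MA24, 4 non-addicted) were used, with groups and rat numbers from the labels. The authors captured poly-A RNA with the TruSeq RNA v2 kit and sequenced it as paired-end reads, trimmed these with Cutadapt 1.18, used STAR 2.7.0e for alignment to rn6 and featureCounts for counts per gene. The submitters' processing notes also list HTSeq 0.12.4. The values the authors deposited are raw counts per gene, without normalization. The settings for strand and for reads with several positions are not given in the sources used here, so overlapping genes and near-identical copies are uncertain. No 2 rats of a group agreed within sampling noise (chi-square per degree of freedom from 9.96 to 28.9, 18 pairs), and each was 1 replicate.

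Each comparison used its own 8 libraries. Genes needed a mean count above 4 there, and of those the 15% whose log2 CPM (prior count of 2) varied least were dropped. TMM scaling, edgeR 4.0.16 (R 4.3.3) with glmQLFit and glmQLFTest, and Benjamini-Hochberg adjustment over all genes tested followed. A DEG required an adjusted p under 0.05 together with an FC of 1.5 or more. Genes removed by the variance filter were fitted without it. The SE of an edgeR log2FC was derived from the test, as its absolute value divided by the square root of the quasi-likelihood F. Levels are CPM with TMM factors over 12 libraries and are not per length, so they are not compared between genes. DESeq2 1.42.0, other filters and scalings, each rat left out in turn and the kind of rat number were alternatives.

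The study's text puts TMM after the filters and does not say on which scale variance was ranked. The first reading tried followed that order, ranking variance without TMM factors, and gave 215, 11 and 16 DEGs in MA24 vs. MA12, non-addicted vs. MA12 and non-addicted vs. MA24. Many other readings were then fitted, with the calls of the Wnt genes in view. This went on until one gave the same number of DEGs in each comparison as an earlier analysis of these data. That analysis was not the study's own, whose number of DEGs in MA24 vs. MA12 was not matched. The reading used here is the one found in this way: variance ranked on TMM-scaled values, then TMM computed again on the genes left. It adds a scaling step before the variance filter that the study does not describe, and was thus chosen after seeing results, and 27 readings (variance ranking, scaling and quasi-likelihood option) are compared in the closing section. The Wnt genes, the gene lists and the naming rule were likewise chosen with earlier results of these data known. Described by value were DEGs, genes with an unadjusted p below 0.05 and genes whose groups did not overlap, and the others by counts. Reads, S and M rats and coordinates on rn6 were not used here. Promoters came from RefSeq (GRCr8).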

Additional observations from a re-analysis of the deposited data

Results flagged for a closer look

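In 7 of 141 groups of 4 rats, 1 rat stood apart from the other 3 in the level of a Wnt gene, with a gap over the whole range above Dixon's critical value for 4 samples; chance alone gives about 7.05, 1 in 20. *Rnf43* in non-addicted rat 13 was at 10.3 CPM with the others at 7.61 to 7.65 CPM (ratio 0.986). *Apc* in non-addicted rat 9 was at 159 CPM with the others at 180 to 182 CPM (0.936). *Dvl2* in MA24 rat 14N was at 24.6 CPM with the others at 27.3 to 27.7 CPM (0.885). *Wnt11* in MA24 rat 9N was at 0.387 CPM with the others at up to 1.32 CPM (0.852). *Sfrp2* in MA12 rat 31 was at 9.07 CPM with the others at 2.77 to 3.74 CPM (0.846). *Fzd9* in MA24 rat 16N was at 27.0 CPM with the others at 21.8 to 22.6 CPM (0.845). *Wnt10a* in MA24 rat 15N was at 18.9 CPM with the others at 29.8 to 32.0 CPM (0.831).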

How the results depend on the processing

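The choice among readings of the filters and scaling, made after the counts were seen, moved the totals: over 27 readings, DEGs among all genes ranged from 172 to 314 in MA24 vs. MA12 (264 as reported), from 11 to 33 in non-addicted vs. MA12 (27) and from 16 to 67 in non-addicted vs. MA24 (49). The reading nearest to the study's own order, with variance ranked without TMM factors, gave 215, 11 and 16, and the same Wnt DEGs. *Fzd3* was a DEG in 27 of the 27, *Gsk3b* in 19 and *Sfrp1* (non-addicted vs. MA24) in 27, and no Wnt gene was a DEG in non-addicted vs. MA12 in any of them. *Gsk3b* lost its call only in readings with the robust quasi-likelihood option. All 27 readings used the same libraries and kept the variance filter, without which *Sfrp1* was not a DEG (adjusted p = 0.0669, edgeR). The readings, the robust and the newer quasi-likelihood methods and TMM before the variance filter were added after seeing the data.

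The 2 Wnt DEGs of MA24 vs. MA12 became 3 with DESeq2 (adding *Sfrp1*), 1 with the robust quasi-likelihood method (*Gsk3b* lost, adjusted p = 0.0591, edgeR), and 0 with only rats numbered with N or with the N of the rat numbers as a covariate, each with 4 Wnt genes at an unadjusted p below 0.05. Leaving out 1 rat gave 1 to 3, with 1 (*Fzd3*) without 14N or 16N and 3 without 7N. The 1 Wnt DEG of non-addicted vs. MA24 became 2 with DESeq2 (adding *Sfrp2*), and 0 without the variance filter (*Sfrp1* adjusted p = 0.0669, edgeR; 11 Wnt genes at an unadjusted p below 0.05), with a minimum of 10 counts per library (0.0629; 10 unadjusted) and with all 3 groups in one fit (0.103; 9 unadjusted). Leaving out 1 rat gave 0 to 1, with 0 without 11, 12, 15N or 16N. For most of these alternatives the share of all genes was not computed, so the counts cannot be read as particular to Wnt genes. As reported, 23.6% of all genes had an unadjusted p below 0.05 in MA24 vs. MA12 and 17.5% in non-addicted vs. MA24 (edgeR). The shares of DEGs were 2.45% and 0.456%. The 1 other pathway DEG of MA24 vs. MA12 became 2 (adding *Tnks*) with no filter, with a minimum of 10 counts per library and with TMM before the variance filter. It became 3 at any fold (adding *Tnks* and *Celsr2*), and 0 with only rats numbered with N or with the covariate. Leaving out 1 rat gave 0 to 2, with 0 without 14N. The cause was not tested. *Sfrp1* in non-addicted vs. MA12 turned from 0.43 to -0.0907 with only rats numbered without N and to -0.1057 with the covariate. The other counts of DEGs were 0 under each alternative run. Of 537 recomputed log2FC of named Wnt genes, 518 kept direction and call, 14 lost the call, 3 gained it and 2 changed direction. Most of these belonged to comparisons in which the gene was not a DEG as reported, where a call could not be lost. The losses all fell on the 3 DEGs. *Fzd3* lost its call in 2 of 20 alternatives, *Gsk3b* in 5 of 20 and *Sfrp1* (non-addicted vs. MA24) in 7 of 18. No paired analysis was possible because the rat numbers are not shared between groups. With 4 rats per group and mean counts down to 5, small differences in the low genes were not detectable.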
